A study of Drosophila melanogaster with 12 samples.

Results

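Frost (*Fst*), starvin (*stv*) and 7 genes of the heat shock family were followed in RNA of *loj* mutant and control females. The members are the probe sets that the array annotation assigns to a single gene, where that gene is *Fst*, *stv*, *Hsp26*, *Hsp27*, *Hsp60A*, *Hsp68*, *Hsc70-4*, *DnaJ-1* or *Hsf*. All 9 genes were found, each with 1 probe set, among 11981 genes that have such a probe set and 18769 probe sets in all, array controls left out. The *loj* gene encodes a p24 protein, a family that takes part in moving cargo between the endoplasmic reticulum and the Golgi. *loj* females carried loj 00898 over loj 04026, an allele pair described by the study as strongly hypomorphic and probably null. Control samples mixed equal numbers of heterozygous loj 00898/+ and loj 04026/+ females, so every animal carried at least 1 mutant allele and no wild-type genotype was measured. All were 4 days old, had mated once with a wild-type male and were dissected 3 h later into abdomen (ovaries, genital tract, fat and gut) and head/thorax (nervous system, head fat and thoracic muscle). Each of the 12 samples, 3 per genotype and body part, was a separate RNA extraction from tissue of 12 females and was hybridized to 1 Affymetrix *Drosophila* Genome 2.0 array. In such bulk RNA, more cells of a type and more RNA per cell cannot be told apart.

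Heat shock proteins are chaperones that bind unfolded proteins. The Hsp70 proteins work in cycles with J-domain partners such as DnaJ-1 and with nucleotide exchange factors, among them BAG-domain proteins such as starvin. The transcription factor Hsf turns on the heat-inducible members, while Hsc70-4 is made at all times. In the fly ovary, Hsp26 and Hsp27 are known to be made without heat. *Fst* is best known for its strong induction while flies recover from cold.

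Levels are given as linear intensities, and a change is a difference in log2 intensity tested with limma over all probe sets. Calls required at least 1.5-fold and a p under 0.05 after Benjamini-Hochberg adjustment. The background of an array was set at the 95th percentile of its 27 probe sets for bacterial transcripts. In abdomen this background ran from 91.2 to 131 on control arrays and from 76.8 to 108 on *loj* arrays. The head/thorax arrays had 206 to 256 (control) and 126 to 236 (*loj*). The *loj* transcript had intensities of 921 to 1087 in control abdomens and 1034 to 1220 in control head/thorax, and of at most 43.2 on the 6 arrays of *loj* females, all below background. Ovary markers (*osk*, *Vm26Aa*, *Cp36*) were above background on all 6 abdomen arrays and on 0 of the 6 head/thorax arrays, and the eye and nervous system markers *Arr2*, *trp* and *nSyb* showed the reverse (a 4th, *elav*, was also above background on 2 *loj* abdomen arrays). *Yp1*, *Yp2*, *Yp3* and *Lsd-1*, listed as ovary and fat body markers, did not separate the body parts and were above background on every array. In controls their log2 differences, head/thorax minus abdomen, were 0.10, 0.27, 0.31 and 1.64. On the log2 scale, the ratio of 3′ to 5′ *Act5C* signal was 0.82 ± 0.08 in control and 0.69 ± 0.02 in *loj* abdomens (SD, n = 3). In head/thorax it was 1.38 ± 0.06 in controls and 0.89 ± 0.12 in *loj* (SD, n = 3). The genotypes did not overlap in either body part, and control head/thorax lay above control abdomen. The part of this ratio in the results below, between genotypes or between body parts, was not tested.

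*Fst* had the largest change of the 9 genes in both body parts. Its intensity was 252, 338 and 413 in control abdomens and 2854, 5215 and 3038 in *loj* abdomens. The head/thorax samples had 174, 317 and 289 in controls, of which 2 arrays were above background, and 1143, 3343 and 1367 in *loj*. The genotypes did not overlap in either body part, and replicate 2 was the highest *loj* sample in both. Mean intensity rose from 335 ± 80.6 to 3702 ± 1314 (SD, n = 3) in abdomen, a 10.9-fold change (log2 3.44, SE 0.29, limma adjusted p = 0.0144). The head/thorax mean rose from 260.0 ± 75.5 to 1951 ± 1211 (SD, n = 3), a 6.89-fold change (log2 2.79, SE 0.45, adjusted p = 0.0347). Set against the control mean of log2 values, single *loj* samples were 8.70-fold, 15.9-fold and 9.27-fold higher in abdomen. In head/thorax they were 4.54-fold, 13.3-fold and 5.43-fold higher. All these folds come from means of log2 values and so differ slightly from ratios of the linear means. Between the body parts, the *loj* samples overlapped, as did the control samples.

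With 1 array left out, calls over all probe sets fell from 164 to between 22 and 52 in abdomen, and from 350 to between 93 and 255 in head/thorax except without *loj* replicate 1 (395). In abdomen the *Fst* call was then lost without control replicate 1, 2 or 3 or without *loj* replicate 3, with log2 changes of 3.17 to 3.61 over all single omissions and an adjusted p of up to 0.0635. The head/thorax call was lost on leaving out any array but *loj* replicate 1, with log2 changes of 2.31 to 3.09 and an adjusted p of up to 0.129. *Fst* and *stv* are among the genes that the study picked from these same samples, so their calls are not independent evidence of a change. For *Fst* the study also ran qPCR on RNA preparations that were not put on arrays, and reported a change in the same direction. It further reported higher *Fst* in mutants of another p24 gene, *eca*.

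*stv* encodes a co-chaperone of Hsc70-4 that is known for its role in muscle maintenance. Its intensity was 263, 237 and 272 in control abdomens and 490, 542 and 583 in *loj* abdomens. Head/thorax intensities were 2045, 2097 and 2054 in controls and 2451, 3221 and 3594 in *loj*. None of the 4 groups overlapped: control abdomen was lowest, followed by *loj* abdomen, control head/thorax and *loj* head/thorax. In abdomen *stv* rose 2.09-fold (log2 1.06, SE 0.09, adjusted p = 0.0144 from limma). The head/thorax difference was 1.48-fold (log2 0.56, SE 0.14, 95% interval 0.22 to 0.90) and was not called (limma adjusted p = 0.102). Under some alternatives, described at the end, its adjusted p was under 0.05 while the change stayed below 1.5-fold. Limma gave an adjusted p of 0.0438 after median centring and 0.0253 with all 12 arrays in 1 fit. Without probe sets under the median intensity it was 0.037, and with the background level as floor 4.83e-08. A Cyber-T style test gave 0.0103.

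The abdominal *stv* call was lost without control replicate 1 or 3 or without *loj* replicate 2 or 3 (adjusted p up to 0.0884), with log2 changes of 1.00 to 1.13. The head/thorax value depended on *loj* replicate 1, the lowest *loj* sample. Without it the log2 change was 0.72 and was called (adjusted p = 0.0101 from limma). That array also stood apart in its 3′ signal for 18S ribosomal RNA, which was 4103 against 410.0 to 569 on the other 5 head/thorax arrays. The flight muscle markers *Act88F*, *fln* and *up* together gave 441 to 584 in control abdomens and, within that range, 500 to 568 in those of *loj*. Only *up* was above background there (log2 0.20, adjusted p = 0.570). In head/thorax their sum was 18147 to 18336 in controls and 18759 to 20020 in *loj*, with log2 changes of 0.27 for *Act88F* (adjusted p = 0.180), -0.0044 for *fln* and 0.08 for *up*. The part of muscle content in the *stv* values was not tested.

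**Figure D1:**
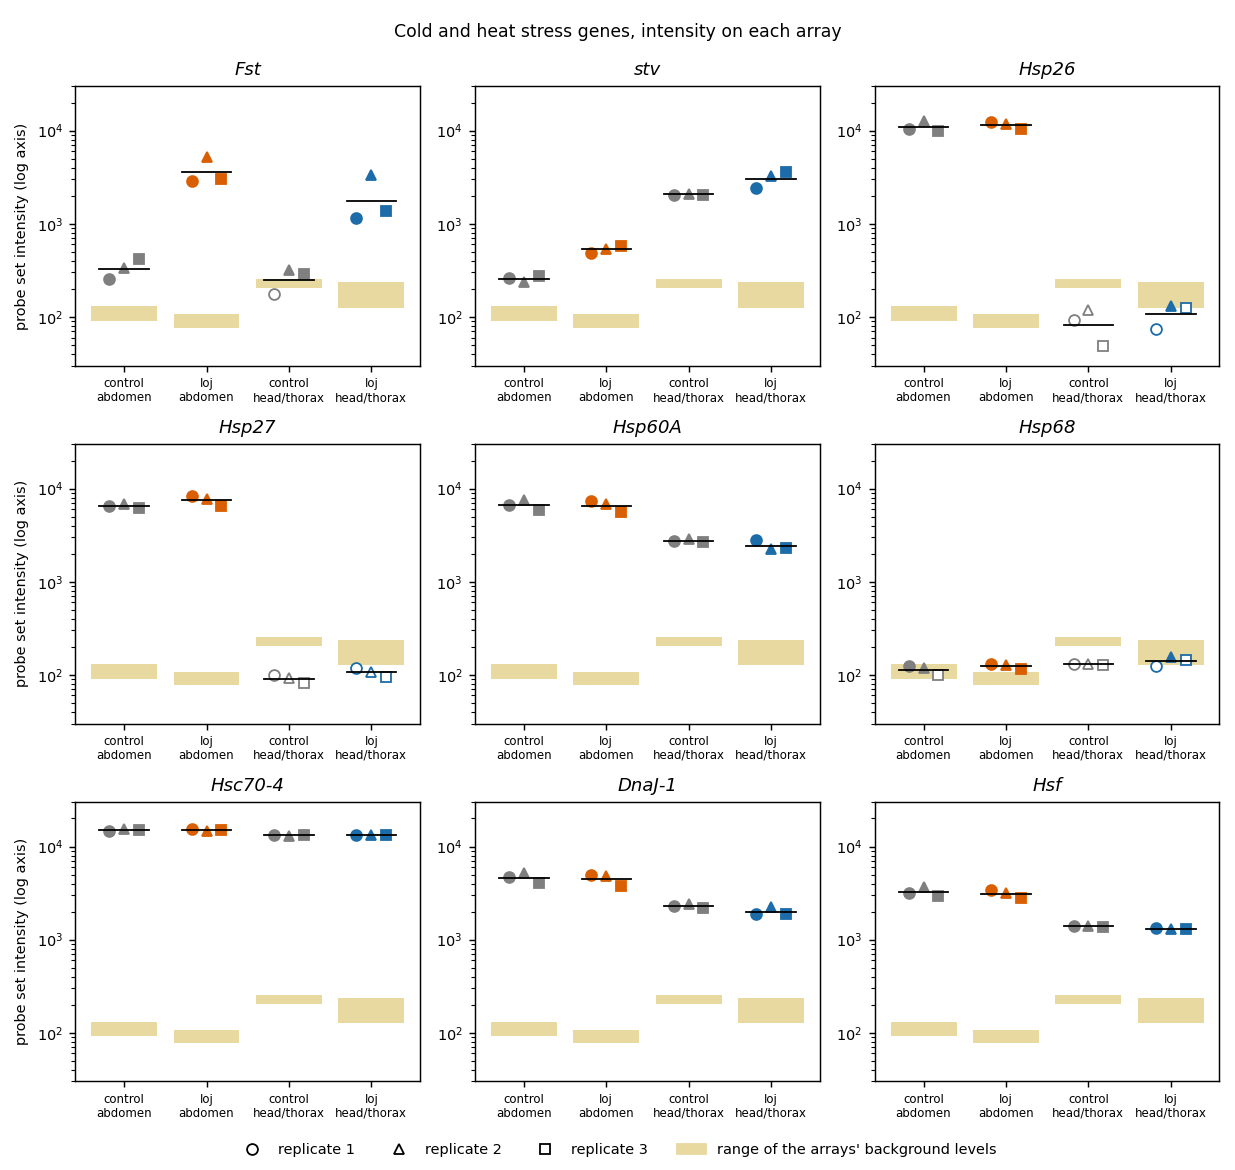
Intensity of the 9 probe sets on each of the 12 arrays (y axis, log scale, arbitrary units; x axis, the 4 groups), with symbols for replicates 1 to 3, black lines at the mean of log2 values, open symbols for values not above the array's own background and tan bands for the range of background levels in the group. *Fst* in *loj* lies at 1143 or more on all 6 arrays against 413 or less in controls, *stv* forms 4 separate groups, and *Hsp26* and *Hsp27* are near or below background in head/thorax.

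Of the 9 genes, 2 were called higher in *loj* abdomens, against 0.618% of all probe sets, and 0 were called lower; 0.874% of all probe sets were called in either direction. In head/thorax 1 was called higher, against 1.09% of all probe sets, and 0 lower, with 1.86% called in either direction. The 3 *loj* arrays lay outside the control range for 2 genes in abdomen, *Fst* and *stv*, both higher, where 19.5% of all probe sets did so. In head/thorax they lay outside it for 3 genes, *Fst* and *stv* higher and *Hsf* lower, where 23.8% of all probe sets did so. The median log2 change of the 9 genes was 0.07 for abdomen and 0.13 for head/thorax, beside -0.03 and -0.01 over all probe sets.

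The other 7 genes were not called in either body part. In abdomen their log2 changes ran from -0.06 to 0.20, with a lowest adjusted p of 0.470, and every 95% interval lay between -0.39 and 0.45, which is inside 1.5-fold either way. Among them, *Hsf*, the heat shock transcription factor, had intensities of 3156, 3699 and 2920 in control and 3443, 3143 and 2768 in *loj* abdomens, which overlapped. Head/thorax values were 1403, 1388 and 1368 in controls and 1324, 1289 and 1316 in *loj*. These head/thorax groups did not overlap, but the difference was small (log2 -0.08, SE 0.03, limma adjusted p = 0.287).

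*Hsc70-4*, the constitutive Hsp70 to which starvin binds, had the smallest change of the 9 genes in both body parts. It measured 14707, 15503 and 14956 in control and 15468, 14778 and 14948 in *loj* abdomens. The head/thorax values were 13440, 12819 and 13348 in controls and 13395, 13265 and 13180 in *loj*. Genotypes overlapped in both body parts, and the 95% interval of the log2 difference was -0.17 to 0.17 for the abdomen and -0.07 to 0.09 for head/thorax. *DnaJ-1*, the J-domain partner, measured 4724, 5168 and 4088 in control and 4909, 4772 and 3803 in *loj* abdomens. Head/thorax samples had 2289, 2404 and 2194 in controls and 1895, 2217 and 1871 in *loj*, with 1 *loj* array inside the control range. The log2 difference there was -0.21 (SE 0.08, limma adjusted p = 0.243).

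*Hsp60A*, the mitochondrial chaperonin, measured 6672, 7518 and 5942 in control and 7283, 6904 and 5586 in *loj* abdomens. In head/thorax the gene had 2720, 2842 and 2700 in controls and 2802, 2235 and 2297 in *loj*, and the groups overlapped through *loj* replicate 1 (log2 -0.18, SE 0.09, adjusted p = 0.385). Without that array the log2 change was -0.28 with an adjusted p of 0.0396, still under 1.5-fold. The probe sets of *stv*, *Hsp60A*, *Hsc70-4* and *DnaJ-1* are of the kind whose probes can match several transcripts, so related transcripts may add to their signal.

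*Hsp26* and *Hsp27* encode small heat shock proteins and lie close together, with 3 genes between them, *Hsp23* among these. The 3 control abdomens had *Hsp26* intensities of 10487, 12642 and 9889 and the 3 *loj* abdomens 12456, 11724 and 10366. *Hsp27* measured 6441, 6859 and 6213 in control and 8244, 7657 and 6566 in *loj* abdomens. Both genes overlapped between genotypes (log2 0.07, SE 0.12 for *Hsp26* and 0.20, SE 0.10 for *Hsp27*). The summed ovary markers ranged from 22810 to 26960 in control abdomens and from 17683 to 22630 in those of *loj*, and none of the 3 was called (log2 -0.37 to -0.11, lowest adjusted p = 0.112). Their part in the abdominal values of *Hsp26* and *Hsp27* was not tested.

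In head/thorax *Hsp26* measured 93.3, 117 and 49.2 in controls and 73.9, 132 and 125 in *loj*, where only *loj* replicate 2 was above background. *Hsp27* measured 99.8, 93.2 and 81.1 in controls and 118, 107 and 95.7 in *loj*, with 0 of the 6 arrays above background, so no fold is given for either. *Hsp68*, a heat-inducible member of the Hsp70 family, was near background throughout. Its intensities were 124, 118 and 100 in control and 131, 128 and 114 in *loj* abdomens, above background on 2 and 3 arrays. In head/thorax they were 130, 130 and 128 in controls and 126, 156 and 144 in *loj*, above background on 0 and 1 arrays. Genotypes overlapped in both body parts.

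**Figure D2:**
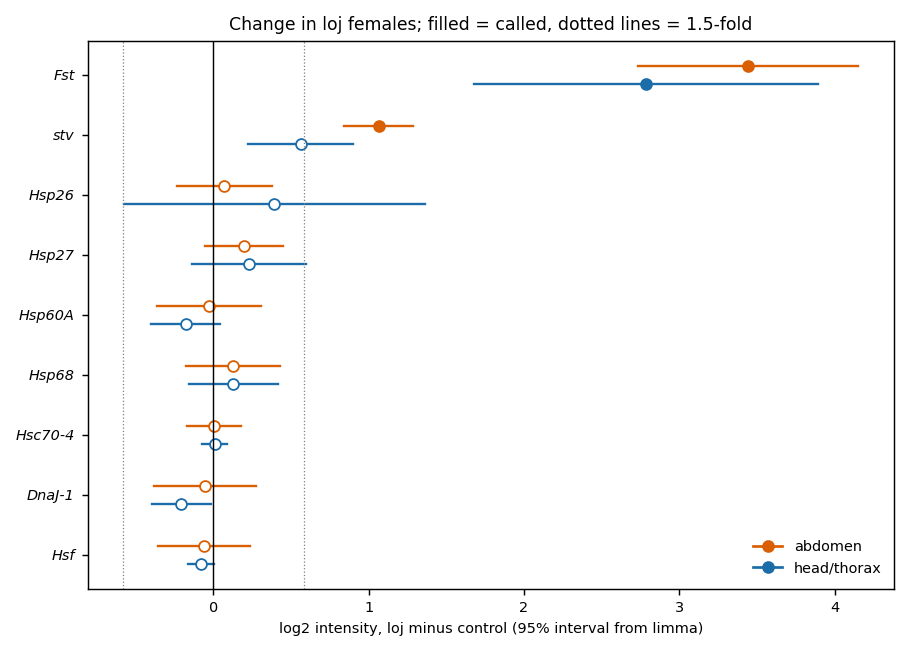
Change in *loj* for each of the 9 genes (x axis, log2 intensity in *loj* minus control, points with 95% intervals from limma), in abdomen (orange) and head/thorax (blue); filled points are called and dotted lines mark 1.5-fold. *Fst* is called at 3.44 and 2.79 and *stv* at 1.06 in abdomen, and the other 7 genes are not called, of which *Hsp68* and, in head/thorax, *Hsp26* and *Hsp27* compare signals near or below background and give no fold.

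Whether the change in *loj* differed between body parts was tested as an interaction on all 12 arrays. None of the 9 genes was called at an adjusted p under 0.05 in limma, against 0.506% of all probe sets. Of the 9, 1, *stv*, had an unadjusted p under 0.05, as did 9.38% of all probe sets. For *stv* the head/thorax change was smaller than the abdominal change by 0.50 on the log2 scale (SE 0.17, adjusted p = 0.356). For *Fst* the difference was -0.66 (SE 0.55, 95% interval -1.87 to 0.56, adjusted p = 0.793).

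In control females 6 of the 9 genes differed between body parts. *stv* was higher in head/thorax by 3.01 on the log2 scale (SE 0.07, adjusted p = 2.37e-07 from limma), a direction in which 33% of all probe sets were called. *Hsp26*, *Hsp27*, *Hsp60A*, *DnaJ-1* and *Hsf* were lower in head/thorax, as were 22.6% of all probe sets. *Hsp26* was at least 48.8-fold and *Hsp27* at least 29.0-fold lower there (limma adjusted p = 1.86e-06 and 5.00e-08). These bounds were taken against the arrays' background levels, since neither gene was above background on any control head/thorax array. The differences of *Hsp60A*, *Hsf* and *DnaJ-1* were -1.28 (SE 0.09), -1.23 (SE 0.09) and -1.02 (SE 0.09). *Hsc70-4* differed by less than 1.5-fold (log2 -0.19, SE 0.05, adjusted p = 0.0115), and *Fst* (log2 -0.38, SE 0.27, adjusted p = 0.262) and *Hsp68* (adjusted p = 0.253) were not called.

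How arrays of different body parts were scaled to each other is not known, and the choice moves these values. The median difference over all probe sets was 0.22 as deposited, -0.15 after quantile normalization and -0.37 after median centring. Over all probe sets, 25.4% were called higher and 29.4% lower in head/thorax after quantile normalization, and 21.4% and 37.3% after median centring, so the more frequent direction turned. The 6 genes were called in the same direction under both. With median centring *Fst* (log2 -0.97, adjusted p = 0.00974) and *Hsc70-4* (log2 -0.78, adjusted p = 0.000111) were called lower too. *Hsp68*, which was above background on 0 of the 3 control head/thorax arrays, changed the sign of its difference with these shifts (-0.40 and -0.41), so it has no direction here.

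**Figure D3:**
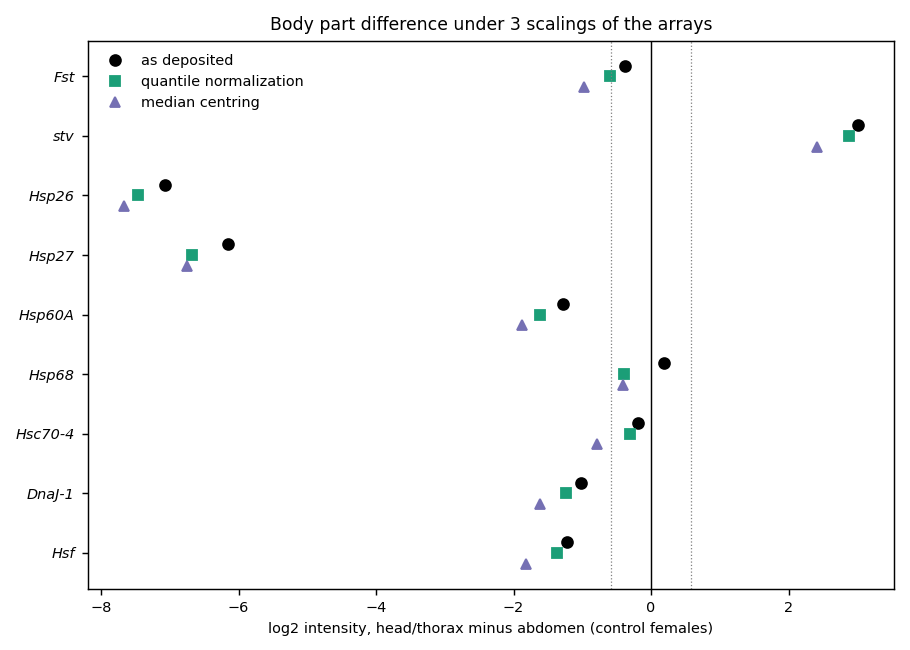
Difference between body parts in control females for the 9 genes (x axis, log2 intensity in head/thorax minus abdomen) with the values as deposited (black circles), after quantile normalization (green squares) and after median centring (purple triangles); dotted lines mark 1.5-fold. *stv* lies above 0 and *Hsp26*, *Hsp27*, *Hsp60A*, *DnaJ-1* and *Hsf* below it under each scaling, while *Hsp68*, not above background in control head/thorax, changes sign with the shift of all probe sets (*Hsp26* and *Hsp27*, likewise not above background there, are at their measured values).

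A list of 65 other stress and chaperone genes was set beside the 9, of which 49 had a probe set of their own. Among the 49, *CG4461*, *CG12020*, *CG2887*, *Hsp60B*, *Hsp60C* and *Desi*, named for this reason, were above background on 0 of the 12 arrays. An absent call says little about these genes. Limma called 0 of the 49 in abdomen and 0 in head/thorax by both criteria, while 7 and 18 had an unadjusted p under 0.05 (over all probe sets, 13.9% and 17.8%). Their median log2 change was -0.02 in abdomen and 0.02 in head/thorax, beside -0.03 and -0.01 over all probe sets. With a Cyber-T style test, 4 were called in abdomen (*CG14207*, *Hsp23*, *jdp* and *smp-30*) and 1 in head/thorax (*CG14207*); that test called 2.32% and 2.89% of all probe sets. *jdp* and *smp-30* are named because of their values. At that unadjusted level, 3 of the 49 were higher in *loj* abdomens, against 6.79% of all probe sets, and 15 in head/thorax, against 8.71%. The 15 include 6 of 12 chaperonin genes, with log2 differences of at most 0.23, none called. *l(2)efl*, a small heat shock protein gene named here after its values were seen, had an adjusted p of 0.0133 in head/thorax with a change below 1.5-fold (log2 0.36).

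*CG14207*, which encodes a small Hsp20-like protein, had the largest change of the 49 in both body parts. Its intensities were 64.6, 166 and 767 in control and 1518, 3084 and 1078 in *loj* abdomens, and 279, 1394 and 2314 in control and 5486, 8739 and 8291 in *loj* head/thorax. Genotypes did not overlap in either body part, while the control arrays ranged widely. The log2 changes of 3.09 (SE 0.93, adjusted p = 0.218 from limma) and 2.93 (SE 0.77, adjusted p = 0.120) were not called. The study picked this gene from the same samples.

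*Hsp23*, the neighbour of *Hsp26* and *Hsp27*, measured 844, 1024 and 693 in control and 446, 493 and 488 in *loj* abdomens. In head/thorax the values were 344, 365 and 273 in controls and 381, 494 and 427 in *loj*. The *loj* samples lay below the controls in abdomen (log2 -0.83, SE 0.15, adjusted p = 0.0739) and above them in head/thorax (log2 0.41, SE 0.15, adjusted p = 0.222), neither called. Of the 49 genes it was the only one called in the interaction test, which called 0.506% of all probe sets. The endoplasmic reticulum and mitochondrial Hsp70 genes *Hsc70-3* and *Hsc70-5* had abdominal log2 changes of -0.02 and -0.01 (adjusted p = 0.979 and 0.991) and head/thorax changes of 0.15 and -0.05 (adjusted p = 0.297 and 0.663). *Hsp22* shares its probe sets with another gene and *Hsp83* has no probe set of its own named here, so neither was analysed here.

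**Figure D4:**
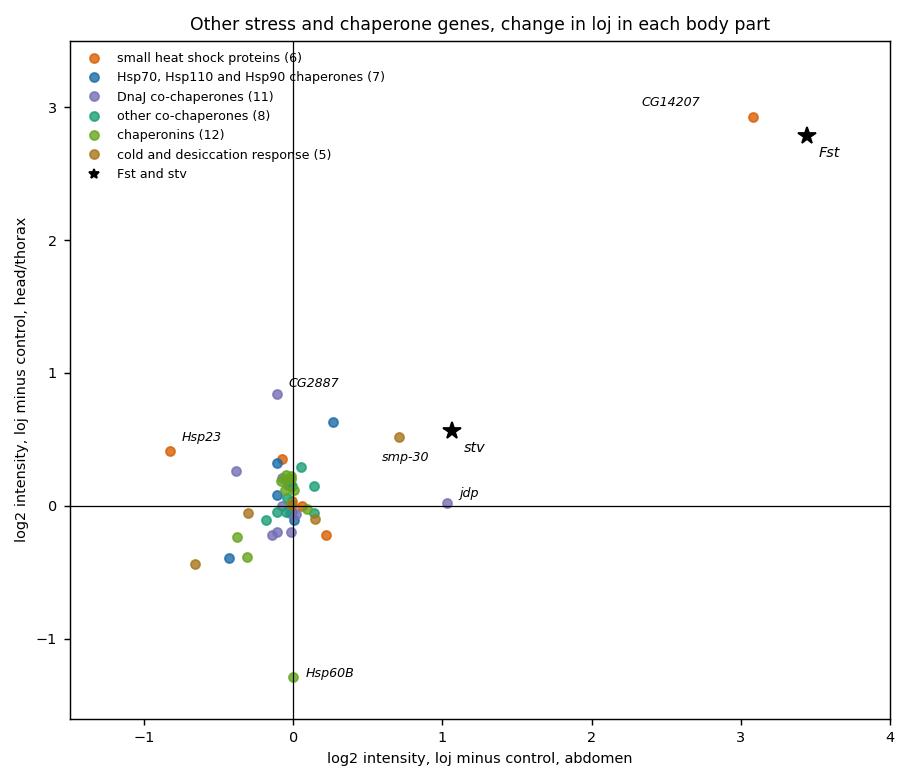
Change in *loj* of 49 other stress and chaperone genes, coloured by class with the number of genes in parentheses, with *Fst* and *stv* as stars (x axis, log2 change in abdomen; y axis, log2 change in head/thorax; each *loj* minus control). *CG14207* lies near *Fst*, at 3.09 and 2.93, *Hsp23* has opposite signs, and *Hsp60B*, at -1.28 in head/thorax, was above background on 0 of the 12 arrays.

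The probe sets whose log2 intensity over the 12 arrays was most like that of *Fst*, among 8783 above background in all 3 arrays of some group, were those of *CG13325*, *CG13482*, *CG13659*, *CG18635* and *CG13311* (Pearson r 0.957, 0.948, 0.943, 0.940 and 0.939). All 12 points share body part and genotype, so r is a description. Mean *CG13482* intensity was 853 in control and 2681 in *loj* abdomens, and 575 and 2284 in head/thorax. The other 4 also had higher means in *loj* in both body parts, which follows from picking them for their likeness to *Fst*. In controls, *CG13325* (means of 65.0 in abdomen and 72.9 in head/thorax) and *CG18635* (85.3 and 73.2) had means below the background levels. The control means of *CG13659* (162) and *CG13311* (201) were below them in head/thorax. For *stv* the 5 most like it were *Nmda1*, *CG6409*, *IP3K2*, *Mkp3* and *Tsp42El* (r 0.996, 0.996, 0.995, 0.994 and 0.994). All were higher in head/thorax than in abdomen, which again follows from the way they were picked. *IP3K2*, an inositol trisphosphate kinase gene, measured 349 in control and 582 in *loj* abdomens and 1879 and 2412 in head/thorax. *Fst* and *stv* were unlike each other over the same arrays (r = 0.08).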

How the data were processed

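Total RNA of 12 samples was hybridized to Affymetrix *Drosophila* Genome 2.0 arrays, 3 samples for each genotype and body part. The deposited table gives 1 linear intensity for each probe set and array. The methods name values from dChip (PM-MM and PM) and from GCOS, of which the submitters' processing notes list version 1.2. The sources used here do not say which values were deposited or what scaling was applied between arrays, and 2.02% of values are below 0, which dChip PM-MM can give. A floor of 1 was applied before log2. Genotypes were compared per body part, and body parts in controls, with limma 3.58.1 in R 4.3.3 (empirical Bayes with an intensity trend, Benjamini-Hochberg adjustment over 18769 probe sets), and the interaction was fitted on all 12 arrays. The fit was tested on simulated data. Precision is limited by the 3 arrays of a group.

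The members and gene lists were chosen with earlier results of these data known, and the background level after the values were seen. The text names all 9 members, any of the other stress and chaperone genes that was called, *Hsp22*, *Hsp23*, *Hsp83*, *Hsc70-3*, *Hsc70-5* and *CG14207* whatever their values, and the 5 probe sets most like *Fst* and *stv*. Of the list genes without a probe set of their own, 11 are on probe sets shared with another gene and were not analysed here. Names come from the array annotation, and *Hsp23* and *CG14207*, which it leaves unnamed, from the study's tables. Where a gene has several probe sets, the brightest was used.

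Alternatives were median centring, quantile normalization, a pseudocount of 32, a filter that keeps probe sets above the median intensity, no intensity trend, no fold threshold, the study's thresholds (unadjusted p under 0.001 and 1.5-fold), all 12 arrays in 1 fit, a Cyber-T style test (window 101, confidence 10), replicate number as a block, the probe set of lowest p per gene, leaving out each array and, chosen after seeing the data, the background level as the floor.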

Additional observations from a re-analysis of the deposited data

Results flagged for a closer look

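The change of *Hsp23* in *loj* differed between body parts, by 1.24 on the log2 scale (head/thorax change minus abdomen change, SE 0.22, adjusted p = 0.0312 from limma on 12 arrays), with all 3 *loj* arrays below the control range in abdomen and all 3 above it in head/thorax. The difference ranged from 1.10 to 1.38 when single arrays were left out and was called in 4 of these 12 fits. It was not called (adjusted p up to 0.0789) without control abdomen replicate 1, control head/thorax replicate 1 or 3, any of the 3 *loj* abdomen arrays, or *loj* head/thorax replicate 2 or 3. Among the other 7 alternatives it was not called with median centring or without the intensity trend (adjusted p up to 0.0825). *Hsp23* was 1 of 49 genes tested in this list and the only one of them called, where 0.506% of all probe sets were called.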

How the results depend on the processing

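Of the 9 genes, 2 were called in abdomen and 0 in a fit with a replicate block (adjusted p = 0.0883 for *Fst* and 0.0897 for *stv*, log2 changes unmoved), where calls over all probe sets fell from 164 to 1, and 0 to 2 with single arrays left out. In head/thorax 1 was called, 0 without the intensity trend, and 0 to 2 with single arrays left out; *Fst* stayed called there with the block (adjusted p = 0.0498). The main fits did not take replicate numbers to pair samples, and whether they do is not stated. Deviations from the group means of same-numbered arrays of the 2 genotypes correlated by -0.01, -0.01 and 0.03 in abdomen. In head/thorax they correlated by 0.05, 0.04 and 0.12. Different-numbered arrays had -0.04 to 0.05 in abdomen, a range that holds the same-numbered values, and -0.08 to 0.03 in head/thorax. Every same-numbered head/thorax value was above that range, so these correlations do not show that the numbers are unrelated there. Abdomens and head/thoraces were dissected apart, and whether same-numbered samples came from the same females is not stated. Same-numbered arrays of the 2 body parts correlated by 0.01, 0.04 and 0.08 in controls and 0.08, -0.0018 and 0.06 in *loj*. Different-numbered arrays had -0.06 to 0.02 in controls and -0.08 to 0.02 in *loj*. Control replicates 2 and 3 and *loj* replicates 1 and 3 lay above these ranges. The main interaction and body part tests treat the arrays as independent, which these correlations do not show. With the block, the limma interaction p of *Fst* was 0.0122 (adjusted 0.321). That of *stv* was 0.00255 (adjusted 0.182). The block changed no other call of the 9 genes. The interaction count was 0 under each alternative run. Between body parts the same 6 genes were called throughout, with *Hsc70-4* added without a fold threshold, *Fst* and *Hsc70-4* with median centring and *Hsp68* (log2 0.85) with the background level as floor, where its control head/thorax value is that level itself.

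Of the 49 other genes, 0 were called in abdomen, but 1 after quantile normalization or without probe sets under the median intensity, 3 with the background level as floor, 2 with all 12 arrays in 1 fit and 4 with the Cyber-T style test. In head/thorax 0 were called, but 1 without a fold threshold, without dim probe sets, with the background level as floor or with the Cyber-T style test.

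Uncalled log2 changes near 0 turned sign. With the background level as floor, *Hsp68* was -0.00055 in abdomen, and *Hsp26*, *Hsp27* and *Hsp68* were -0.44, -0.46 and -0.36 in head/thorax, where control arrays have the higher background level. *Hsc70-4* in head/thorax was -0.0026 after quantile normalization and -0.012 after median centring, where *Hsp68* between body parts was -0.40 and -0.41. Leaving out single abdomen arrays gave values of -0.0041 to 0.17 for *Hsp26*, -0.11 to 0.086 for *Hsp60A*, -0.018 to 0.022 for *Hsc70-4*, -0.15 to 0.061 for *DnaJ-1* and -0.14 to 0.033 for *Hsf*, and single head/thorax arrays -0.012 to 0.022 for *Hsc70-4*. Signals near background limit *Hsp68* in both body parts and *Hsp26* and *Hsp27* in head/thorax.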
